A study of Macaca fascicularis with 56 samples.

Results

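At 8 h, the blood transcriptomes of 6 cynomolgus macaques (Macaca fascicularis) given the peptide LR12 were compared with those of 4 animals given vehicle. These 10 arrays, of 56 in the series, were taken by their labelled treatment and hour, and every gene that could be measured was considered. The series followed 14 animals at 0, 2, 4 and 8 h in 3 arms, of which the third, with 4 animals, received a peptide control. Its title names an endotoxin challenge followed by LR12 or a scrambled LR12. The labels give no doses, no age or sex, and no statement of whether the vehicle animals were challenged with endotoxin or where hour 0 falls relative to the challenge and the peptide. A difference between the arms at 8 h can therefore hold the effect of LR12, a difference in challenge and differences between animals, which cannot be told apart here. The tissue was whole blood collected in a tube that stabilises RNA, so each value sums over red cell precursors, platelets and all leukocytes. Markers of blood were well above the array median in all 10 arrays, with the beta-globin HBB at 13.89 to 14.32 in vehicle and 13.58 to 14.08 in LR12 on the log2 scale. Fewer cells of a type and less RNA per cell cannot be told apart in such samples.

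LR12 is a short peptide derived from TREML1 (TLT-1), a receptor of platelets, and it acts as a decoy for the ligands of TREM-1. TREM-1 is a receptor on neutrophils and monocytes that signals through the adaptor TYROBP (DAP12) and amplifies the response to Toll-like receptors. Endotoxin is read by TLR4 with CD14 and LY96, which drives cytokine and chemokine genes early and acute-phase and neutrophil granule genes later, while lymphocytes and some monocytes leave the blood.

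Values are log2 array signals, so a difference of 1 is a factor of 2. A gene was called where limma, fitted over all 12 groups of arm and hour, gave an adjusted p below 0.05 over the 16020 genes tested. Errors on differences are standard errors from that fit, and errors on group means are standard deviations (vehicle n = 4, LR12 n = 6). Rise, fall and their verbs below compare LR12 with vehicle at 8 h and say nothing of change over time unless an earlier hour is named. The median signal of an array at 8 h lay between 14.9 and 17.5 in vehicle and between 12.99 and 17.5 in LR12 on the linear scale. Control probe sets for spiked-in transcripts split the arrays into a high-control and a low-control set. At 8 h, 2 of 4 vehicle arrays and 3 of 6 LR12 arrays were in the high-control set.

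One vehicle animal, Y31303, stood apart from the other vehicle animals at 8 h. When it was left out, 2668 genes were called between LR12 and the remaining 3 vehicle animals, and its own value lay nearer to the LR12 mean than to the vehicle mean for 2374 of them (89%). For 1915 of the 2668 it lay inside the range of the 6 LR12 animals. The same calculation with Y31301 left out gave 53 called genes, of which 17% were nearer to LR12 in the animal left out. With Y31302 left out, 27% of 63 genes were nearer to LR12, and with Y31304 left out 21.5% of 107. Y31303 kept its labelled group throughout, and gene list counts that moved with it by over 1.5 times are given with and without it, against 5.12% of all genes called higher and 11.5% lower without it.

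With all 10 animals, 435 of 16020 genes were called between LR12 and vehicle at 8 h (2.72%). LR12 was higher in 149 (0.93%) and lower in 286 (1.79%). Counts of called list members with all 10 animals below stand against these shares. Values of the groups did not overlap for 173 genes higher in LR12 (1.08%) and 273 lower (1.7%). Both conditions, a call and no overlap, were met by 42 higher genes (0.262%) and 111 lower genes (0.693%). The median difference over all genes was -0.11. Without Y31303, 820 genes were called higher (5.12%) and 1848 lower (11.5%), and the median difference was -0.15. A fit to the 10 arrays alone, which has fewer degrees of freedom, called 15 genes, 14 of them lower in LR12. The 1 higher gene was TMED5, so no rise named below was called in that fit. With the animal as a block, 744 were called (4.64%), 248 higher and 496 lower. Within the high-control arrays 37 genes were called, and within the low-control arrays 1848.

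**Figure D1:**
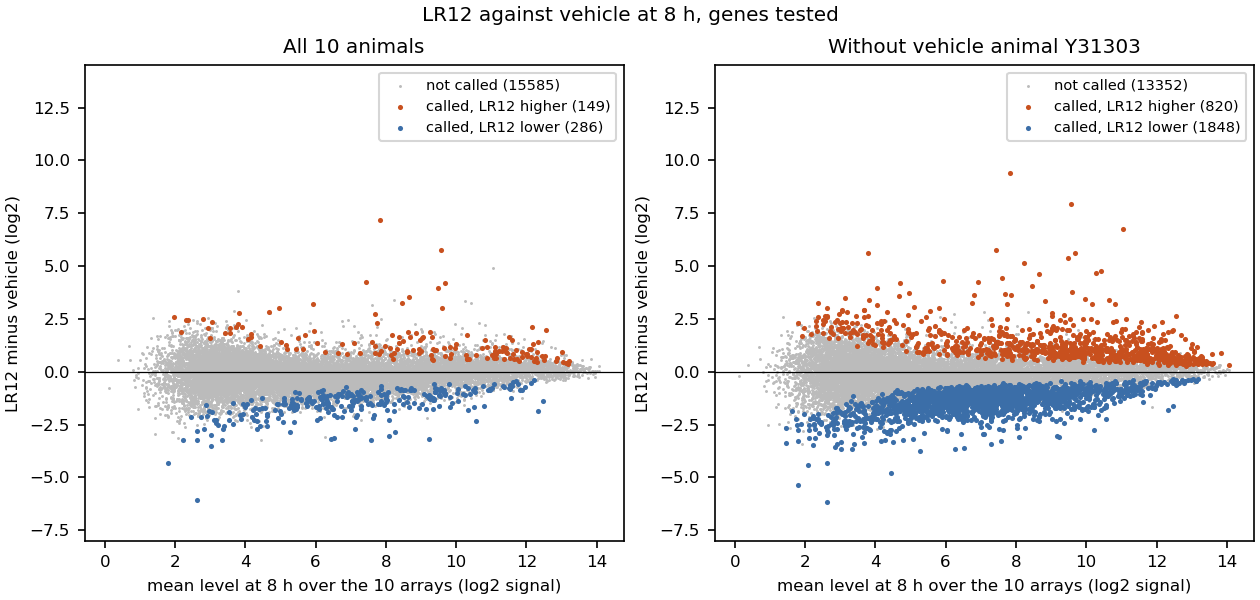
Difference between LR12 and vehicle at 8 h (vertical axis, log2) against the mean level over the 10 arrays (horizontal axis, log2 signal), 1 point per gene, with all 10 animals on the left and without vehicle animal Y31303 on the right. Orange points are called higher in LR12 (149 on the left, 820 on the right) and blue points called lower (286 and 1848).

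Genes of red cell precursors and of heme synthesis were among the calls with the smallest adjusted p, and they were lower in LR12. HBZ, the embryonic zeta-globin chain, read 5.71, 6.10, 5.89 and 7.36 in the vehicle animals and from -0.62 to 0.70 in LR12, with a median of 0.26. Every vehicle animal, Y31303 included, was above every LR12 animal. That was already so at 0 h, with 6.18 to 7.85 in vehicle and 3.68 to 6.01 in LR12. At 8 h the difference was -6.06 ± 0.62 (limma, adjusted p = 3.82e-09), and the LR12 mean of 0.21 lay under the 20th percentile of all probe sets on those arrays, 1.64. With each LR12 array set no lower than its own 20th percentile, HBZ was lower by at least 4.63 on the log2 scale. SLC25A39, a mitochondrial carrier that imports glutathione and is strongly used by red cell precursors, read 10.15, 8.92, 9.77 and 10.81 in vehicle and 6.29 to 7.41 in LR12 (median 6.83). Again the groups did not overlap at 8 h, and SLC25A39 was lower in LR12, with a difference of -3.04 ± 0.42 (adjusted p = 2.3e-05, limma). It already leaned that way at 0 h, with 9.79 to 10.75 in vehicle and 8.31 to 9.85 in LR12. Its difference in change from 0 h was -1.76.

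Of 24 genes listed as erythroid, 19 were tested, 8 were called lower against 1.79% of all genes, and 0 were called higher. Of the 19 differences, 18 were negative, with a median of -1.41. Values did not overlap for 7 of the 19. Without Y31303, 12 were called lower, with a median of -1.31, and with the animal as a block 10 were called lower. CA1, a carbonic anhydrase of red cells, read 11.54, 11.57, 12.18 and 12.50 in vehicle and 8.81 to 10.83 in LR12 (median 9.56), a fall of 2.31 ± 0.38 (adjusted p = 0.000416, limma). ALAS2, the first enzyme of red cell heme synthesis, read 13.40, 12.96, 13.70 and 13.77 in vehicle against 10.67 to 12.53 in LR12 (median 11.58). AHSP, a chaperone of free alpha-globin, read 7.96, 6.52, 7.55 and 7.69 against 4.68 to 5.71 (median 5.31). For CA1, ALAS2 and AHSP the lowest vehicle animal was above the highest LR12 animal at 8 h. For CA1 this also held at 0 h, with 11.83 to 12.69 in vehicle and 9.49 to 11.74 in LR12. ALAS2 was lower by a difference of -1.87 ± 0.32 (adjusted p = 0.000773, limma) and AHSP by -2.17 ± 0.40 (adjusted p = 0.00184, limma). The other probe set of ALAS2 gave -0.17.

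HBM, another alpha-type globin, was called at -1.64, with 7.85 to 8.23 in vehicle and 5.60 to 7.71 in LR12. KLF1, the transcription factor that switches on adult red cell genes, was called at -2.08, HEMGN at -1.70, BPGM, which makes the hemoglobin regulator 2,3-bisphosphoglycerate, at -1.44, and the membrane skeleton gene DMTN at -1.52. KLF1, HEMGN, BPGM and DMTN, and also HBB, SELENBP1 and CA2 below, were picked out after their values were seen. The adult beta-globin gene HBB did not pass the test (-0.24 ± 0.14, adjusted p = 0.335, limma) and neither did SELENBP1 (-2.07, adjusted p = 0.0515), which had an adjusted p of 0.0261 with the animal as a block in limma. CA2, a second carbonic anhydrase, was the one member with a positive value (0.51, adjusted p = 0.82).

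The erythroid genes already leaned the same way at hour 0. The median over the 19 genes was -0.84 at 0 h, against 0.06 for all genes, then -0.79 at 2 h, -1.13 at 4 h and -1.41 at 8 h. None of the 19 was called at 0 h. Scored per animal as the median of the members relative to each gene's mean at 0 h, the vehicle animals gave 0.39, 0.16, 0.37 and 0.80 at 0 h, and the LR12 animals -1.12 to 0.24, with a median of -0.34. At 8 h the vehicle scores were 0.29, -0.01, 0.42 and 0.66, and the LR12 scores ran from -1.30 to -0.58 with a median of -0.94. The arms overlapped slightly at 0 h and not at 8 h. The median of the difference in change from 0 h was -0.48, against -0.19 over all genes, and 0 of the 19 were called on that measure, also with the animal as a block or without Y31303. Within the high-control arrays the 8 h median was -2.04 with 7 members called, and within the low-control arrays -0.82 with 1 called.

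**Figure D2:**
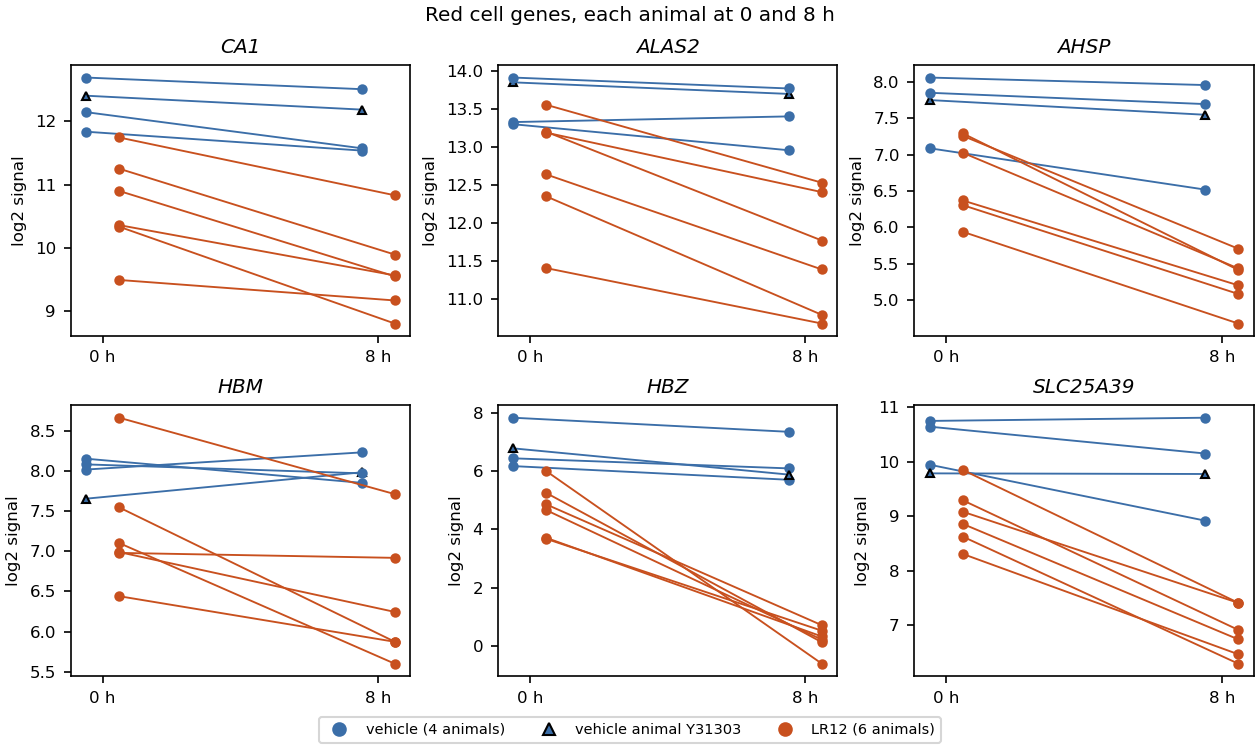
Level (log2 signal) of 6 red cell genes at 0 h and 8 h, 1 line per animal, vehicle in blue and LR12 in orange, with Y31303 as triangles. At 8 h all 4 vehicle animals lie above all 6 LR12 animals for each gene, and for CA1 the vehicle animals, at 11.54 to 12.50 at 8 h, already lie high at 0 h.

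Heme genes outside the red cell list moved with them in part. Of 19 tested genes of heme synthesis and iron handling, 4 were called lower and 2 higher, and the list median was -0.15. Without Y31303, 6 were called lower and 4 higher. UROS, an enzyme of the pathway, read 6.48, 6.40, 5.56 and 6.31 in vehicle and 3.52 to 5.38 in LR12 (median 5.17), a difference of -1.41 ± 0.30 (adjusted p = 0.00732, limma). PPOX, the enzyme before iron insertion, was lower by -1.25 and the biliverdin reductase BLVRB by -1.36, both without overlap. BLVRB was named after its values were seen. For UROS and PPOX the differences at 0 h were 0.40 and -0.06. The 2 genes called higher were HP and LCN2, a hemoglobin scavenger and an iron-siderophore binder that are also made by myeloid cells.

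HP (haptoglobin) was the largest rise among genes whose values did not overlap. It read 2.79, 6.13, 9.76 and 7.41 in vehicle and 9.81 to 10.60 in LR12, with a median of 9.98. The means were 6.52 ± 2.91 in vehicle and 10.06 ± 0.29 in LR12, and the wide vehicle spread ran from near background to the edge of the LR12 range, where Y31303 lay. The difference was 3.54 ± 0.88 (adjusted p = 0.0226, limma), and 4.62 without Y31303. It was 1.35 within the high-control arrays and 5.72 within the low-control arrays. HP differed by 0.28 at 0 h, 3.02 at 2 h and 3.20 at 4 h.

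CCL24 (eotaxin-2), a chemokine for eosinophils, read 2.17, 2.05, 3.53 and 2.02 in vehicle and 4.25 to 5.23 in LR12 (median 4.68), higher in LR12 by 2.27 ± 0.51 (adjusted p = 0.0116, limma). The LR12 mean was 4.77 at 0 h and 4.71 at 8 h, while the vehicle mean was 4.66 at 0 h and 2.44 at 8 h, so the gap at 8 h came with a lower level in vehicle and not with a higher one in LR12. The arms differed by -0.41 at 2 h and -0.35 at 4 h. THBS1 (thrombospondin-1), a matrix protein of platelet granules and monocytes, read 6.00, 4.66, 6.96 and 7.80 in vehicle and 7.80 to 9.98 in LR12 (median 8.58), a rise of 2.31 ± 0.67 (adjusted p = 0.0448, limma). Its highest vehicle and lowest LR12 animals met at 7.80. Its 6 other probe sets also gave higher values in LR12, from 1.31 to 3.43. TINF2, a component of the telomere-capping shelterin complex, read 7.40, 7.64, 8.31 and 7.48 against 8.39 to 9.81 (median 9.45), a rise of 1.64 ± 0.34 (adjusted p = 0.00615, limma), and had differed by 1.35 at 2 h and 1.45 at 4 h.

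The remaining large rises were PSG9, a pregnancy-specific glycoprotein (2.10), the sphingomyelin synthase SGMS2 (1.62), SMIM30 (1.47), EVI2A (1.36), the GTPase-activating protein ARAP2 (1.34), CTR9 of the PAF1 transcription elongation complex (1.33), AFAP1L1 (1.26) and HYCC2 (1.18). All 8 were called without overlap. In PSG9, SGMS2, SMIM30, ARAP2, CTR9 and HYCC2, Y31303 was the vehicle animal nearest to the LR12 group. The other probe set of AFAP1L1 gave -1.26, and the second one of PSG9 gave 0.03, so the rises of these genes rest on 1 probe set each. For PSG9 the vehicle mean changed by -1.30 from 0 h to 8 h and the LR12 mean by 0.85.

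PTGR1, a reductase that inactivates leukotriene B4 and prostaglandins, was among the large falls outside the erythroid list. It read 11.26, 10.76, 11.41 and 11.06 in vehicle and 6.63 to 8.54 in LR12 (median 8.20). The difference was -3.18 ± 0.59 (adjusted p = 0.00184, limma). It was already -2.60 at 0 h (adjusted p = 0.154), -3.39 at 2 h and -2.96 at 4 h, so the arms lay apart by a similar amount at each hour. ACSL6, an acyl-CoA synthetase used by red cells, fell by 3.24 ± 0.59 (adjusted p = 0.00184, limma), with 9.66, 8.68, 9.38 and 10.38 against 4.65 to 8.03. BACE2, an aspartyl protease, fell by 2.86 and DNAI2, a dynein intermediate chain, by 3.20. ACSL6, BACE2 and DNAI2 also stood lower at 0 h, by -1.93, -1.78 and -2.10, none of them called.

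NCAM1 (CD56), an adhesion molecule that in macaque blood marks monocytes as well as some lymphocytes, read 9.96, 9.58, 7.07 and 7.08 in vehicle and 4.42 to 6.45 in LR12 (median 5.07). The difference was -3.16 ± 0.71 (adjusted p = 0.0116, limma), and it had been -0.28 at 0 h, then -3.72 and -3.79 at 2 and 4 h. The vehicle animals formed a high and a low pair, and both pairs stayed above LR12. The low pair, Y31303 and Y31304, holds the 2 vehicle arrays of the high-control set, and the difference was -2.23 within that set and -4.08 within the low-control set. The other large falls were PADI3, a peptidyl arginine deiminase (-4.34), SOX6, a transcription factor of red cell maturation (-3.49), the carbonic anhydrase-related CA11 (-3.25), RPGRIP1 (-2.82) and SH3GLB2 (-2.70). PADI3, SOX6 and RPGRIP1 had LR12 means under the 20th percentile of all probe sets. For PADI3 all 6 LR12 arrays were under it, and the gene was lower by at least 2.76. Of the other probe sets, 3 of 4 for NCAM1 and 1 of 3 for SOX6 gave the same direction.

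At 0 h, 14 of the 24 genes of the largest rises and falls leaned the same way as at 8 h.

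**Figure D3:**
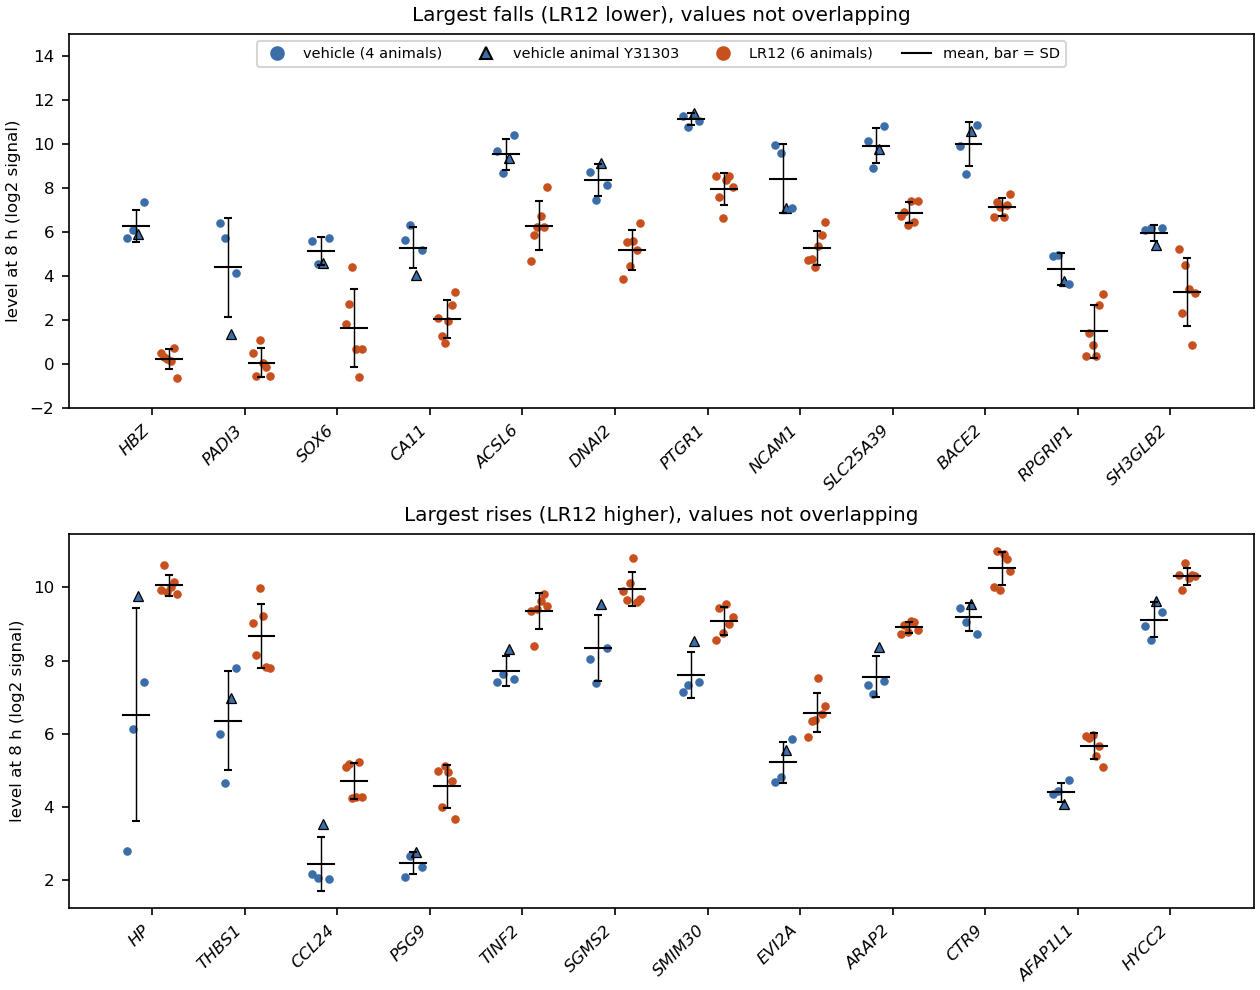
Level at 8 h (log2 signal) in each animal for the 12 largest falls (top) and the 12 largest rises (bottom) among called genes without overlap, vehicle in blue, LR12 in orange, Y31303 as a triangle, with group means and SD. HBZ averages 6.27 in vehicle and 0.21 in LR12, and HP 6.52 and 10.06, with Y31303 at 9.76.

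Lymphocyte genes were lower in LR12 on the median, but few passed the test while Y31303 was included. Of 22 tested T cell genes, 21 differences were negative with a median of -0.99, and 2 were called lower, against 1.79% of all genes. CD3G, a chain of the T cell receptor complex, read 7.02, 7.87, 6.58 and 7.88 in vehicle and 5.68 to 6.76 in LR12 (median 6.09), a fall of 1.21 ± 0.30 (adjusted p = 0.0182, limma). ZAP70, the kinase next to that receptor, fell by 1.98 ± 0.55 (adjusted p = 0.0378, limma), with one LR12 animal at 1.24. Only for ZAP70 of these 2 genes did the groups not overlap, and its other probe set gave -0.35.

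The T cell score at 8 h was -0.20, 0.17, -2.01 and -0.45 in the vehicle animals and -1.999 to -0.97 in LR12 (median -1.75). Y31303, at -2.01, was the lowest of the 10 animals and the other 3 vehicle animals were above all 6 LR12 animals. Without Y31303, 17 of 22 T cell genes were called lower, with a median of -1.47, against 11.5% of all genes called lower in that fit. With the animal as a block and all 10 animals, 3 were called lower. The median of the T cells was -0.28 within the high-control arrays and -1.74 within the low-control arrays. At 0 h the arms overlapped, with a median of 0.11 over the 22 genes.

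B cell genes gave the same picture. Of 19 tested, 18 were negative with a median of -1.27 and 2 were called lower, against 1.79% of all genes. FCER2 (CD23), the low-affinity IgE receptor, read 6.55, 6.48, 4.54 and 6.29 in vehicle and 1.52 to 4.90 in LR12 (median 4.45), a difference of -2.31 ± 0.53 (adjusted p = 0.0118, limma). CD79A, a signalling chain of the B cell receptor, differed by -1.74 ± 0.49 (adjusted p = 0.0416, limma). In both genes Y31303 was the vehicle animal within the LR12 range. Without it, 14 of 19 B cell genes were called lower, with a median of -1.67, and 5 were called lower with the animal as a block. Within the high-control arrays, where Y31303 is 1 of 2 vehicle animals, the B cell median was -0.12, and within the low-control arrays -2.08.

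Natural killer and cytotoxic genes had 1 member called lower of 23, the protease CTSW (-1.46), against 1.79% of all genes. Their median was -0.63. Without Y31303, 6 were called lower and the median was -0.83. For MHC class II presentation 1 of 16 was called, RFX5, a regulator of class II promoters (-0.66), with 15 of 16 negative and a median of -0.86. Its other probe set gave 0.02. Without Y31303, 8 of 16 were called lower, and with the animal as a block 2. Among 18 dendritic cell genes 0 were called and the median was -0.87, against 7 lower and 1 higher without Y31303. BCL2, a survival gene of lymphocytes and the 1 called of 20 apoptosis genes, fell by 1.35 (adjusted p = 0.0479, limma), with 2 of 3 other probe sets in the same direction. Without Y31303, 3 apoptosis genes were called higher and 1 lower.

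Cell cycle genes had a median near 0 at hour 0 (0.10) and a negative one at 8 h (-0.71). Of 29 tested, 8 were called lower, against 1.79% of all genes, and 27 were negative. E2F1, a transcription factor of S phase entry, read 7.97, 7.50, 7.45 and 7.52 in vehicle and 5.83 to 6.75 in LR12 (median 6.63), a fall of 1.10 ± 0.23 (adjusted p = 0.00675, limma). TOP2A, the topoisomerase of dividing cells, read 7.71, 8.59, 6.54 and 7.16 against 5.18 to 6.04 (median 5.55), a fall of 1.93 ± 0.45 (adjusted p = 0.0132, limma). For both, Y31303 was the lowest vehicle animal and still above LR12. MCM4 (-1.71) and MCM2 (-1.54) of the replicative helicase, the mitotic kinase AURKB (-1.51), the nucleotide enzymes RRM1 (-2.04) and TYMS (-1.39), and the mitotic activator CDC20 (-1.25) were the others called. MCM2, RRM1, TYMS and CDC20 were named after their values were seen. The other probe set of TOP2A gave -0.13 and that of AURKB 0.53, and the 4 of MCM4 ran from -0.83 to 2.26, with 3 below 0. Without Y31303, 17 of 29 were called lower, against 11.5% of all genes, with a median of -1.14. With the animal as a block and all 10 animals, 10 were called lower. In the fit to the 10 arrays alone 0 cell cycle, T cell and B cell genes were called, against 2 erythroid genes, CA1 and AHSP.

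**Figure D4:**
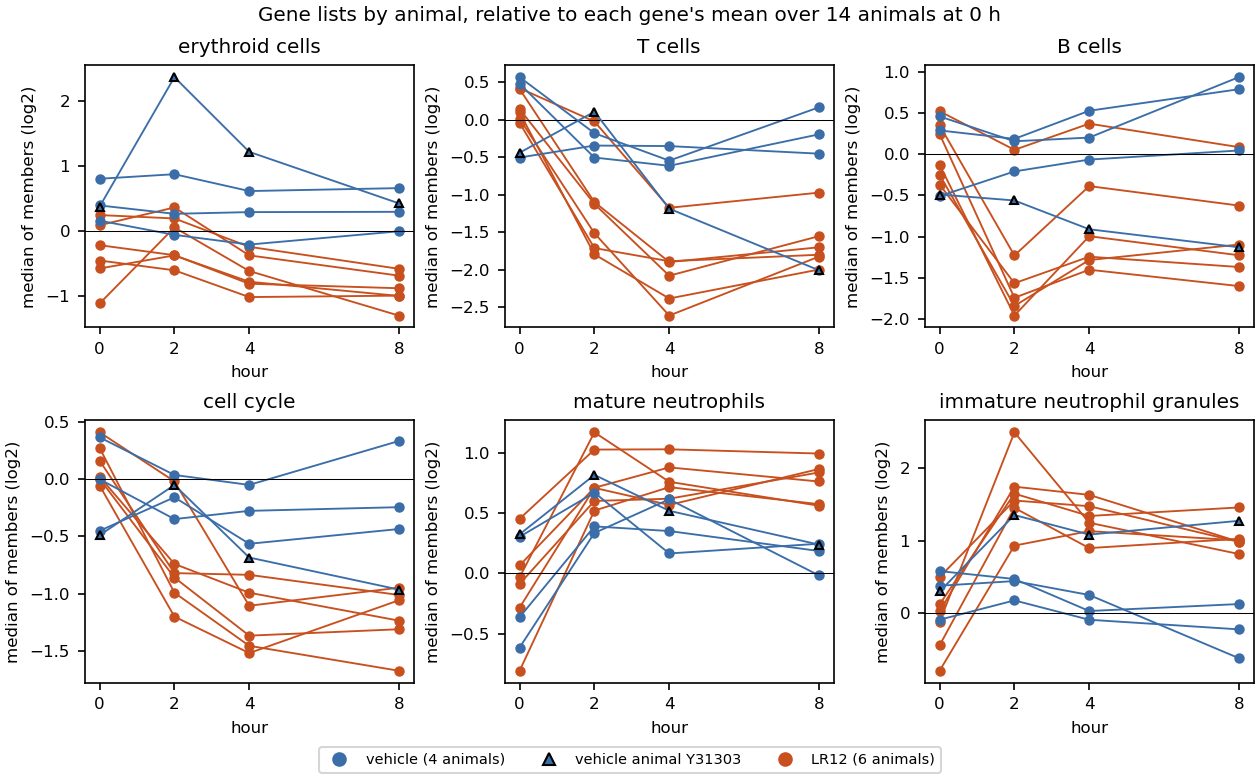
Score of 6 gene lists (median over members, log2, relative to each gene's mean over 14 animals at 0 h) at 0, 2, 4 and 8 h, 1 line per animal, vehicle in blue, LR12 in orange, Y31303 as triangles. At 8 h Y31303 lies with LR12 for T cells (-2.01), B cells (-1.13), cell cycle (-0.96) and granules (1.27), and with the vehicle animals for erythroid genes (0.42) and mature neutrophils (0.24).

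Several myeloid genes were called higher in LR12, with Y31303 among the LR12 animals for the largest differences. Of 17 scavenger and Fc receptors 2 were called higher, against 0.93% of all genes. Without Y31303, 6 were called higher, against 5.12% of all genes, and 1 lower. MARCO, a scavenger receptor of macrophages, read 1.43, 0.91, 10.21 and 1.51 in vehicle and 9.68 to 11.67 in LR12 (median 10.60). Thus 3 vehicle animals lay under the 20th percentile of their probe sets, 1.69 on average over the vehicle arrays, and Y31303 was inside the LR12 range. The difference was 7.19 ± 1.47 (adjusted p = 0.00615, limma). That error pools the spread of all 12 groups, and at 0 h MARCO read only 0.81 to 1.96 in these 10 animals. Without Y31303 only a bound is left, since every remaining vehicle array is near background, and MARCO was higher by at least 9.06 on the log2 scale. OLFM4 (olfactomedin 4), a granule protein of a neutrophil subset, read 3.63, 4.47, 12.65 and 3.70 in vehicle and 11.50 to 12.25 in LR12 (median 11.84). There Y31303 was above every LR12 animal, and the difference was 5.76 ± 1.63 (adjusted p = 0.0418, limma), or 7.94 without that animal. FCGR1A (CD64), the high-affinity IgG receptor, read 6.52, 4.45, 11.37 and 6.10 against 10.43 to 11.60 (median 11.17), a difference of 3.97 ± 1.10 (adjusted p = 0.0384, limma). At 0 h MARCO, OLFM4 and FCGR1A differed by -0.19, -0.53 and 0.58. In the fit to the 10 arrays alone, MARCO, OLFM4 and FCGR1A were not called.

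Of 20 tested genes of immature neutrophil granules, 18 were positive with a median of 0.57. The 2 called higher were OLFM4 and LCN2 (lipocalin-2, 1.97), against 0.93% of all genes. Without Y31303, 8 were called and the median was 1.05. Within the high-control arrays the median was 0.39, and within the low-control arrays 1.33. Of 18 mature neutrophil genes, 2 were called higher, the decoy receptor TNFRSF10C (0.60) and the G-CSF receptor CSF3R (0.65), against 0.93% of all genes. The list median was 0.60. Without Y31303, 7 were called higher and 1 lower. The mature neutrophil score was 0.18, -0.02, 0.24 and 0.24 in vehicle and 0.56 to 0.99 in LR12 (median 0.80) at 8 h, and the arms did not overlap. At 0 h they did, with -0.62 to 0.32 in vehicle and -0.81 to 0.45 in LR12. Among 14 classical monocyte genes 1 was called, the membrane protein MS4A6A (1.32), with 4 of 5 other probe sets in the same direction. Without Y31303, 4 were called higher and 1 lower.

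Complement genes had the highest list median, 0.71 over 20 genes, with 3 called higher against 0.93% of all genes. C3, the central complement component, read 3.48, 1.81, 5.34 and 1.29 in vehicle and 5.31 to 6.16 in LR12 (median 5.86), a rise of 2.80 ± 0.61 (adjusted p = 0.0091, limma). CFB, which forms the alternative pathway convertase with C3, rose by 3.002 ± 0.71 (adjusted p = 0.0148, limma), with 3.21, 3.25, 5.26 and 0.90 against 5.11 to 6.68. In each of C3 and CFB 1 vehicle array lay under its 20th percentile of probe sets. With vehicle arrays set no lower than that, the rises were at least 2.67 and 2.77. ITGAM (CD11b), a chain of the receptor for C3 fragments, rose by 1.72, and was also the 1 called of 23 adhesion genes, of which 3 were called higher and 4 lower without Y31303. In these 3 genes Y31303 was the vehicle animal that reached the LR12 range. The list median was 0.29 at 0 h, and 1.02 at 8 h without Y31303, with 8 higher and 1 lower. The block on animals gave 5 complement genes called higher.

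Of 17 genes listed as anti-inflammatory mediators 2 were called higher, both in the interleukin-1 and Toll-like receptor pathways. IL1RAP, the shared chain of interleukin-1 family receptors, differed by 1.87 ± 0.47 (adjusted p = 0.0214, limma). Such a chain also serves signalling, so its call is not read as anti-inflammatory. IRAK3 (IRAK-M), an inhibitory member of the IRAK family, read 9.73, 9.63, 11.06 and 9.84 in vehicle and 10.46 to 11.53 in LR12 (median 11.19), a difference of 1.10 ± 0.31 (adjusted p = 0.0379, limma). Y31303 again lay inside the LR12 range. PROS1 (protein S), an anticoagulant cofactor, rose by 1.64 ± 0.34 (adjusted p = 0.0069, limma). Together with THBS1 it made 2 of 14 coagulation genes called higher, against 0.93% of all genes. GSDMD, the pore-forming protein of pyroptosis, rose by 0.83, 1 of 18 inflammasome genes called. Without Y31303, 7 anti-inflammatory mediators were called higher and 1 lower. The decoy interleukin-1 receptor IL1R2 (1.94) and the receptor antagonist IL1RN (1.51) were among those higher, and the inhibitory receptor SIGIRR (-1.85) was the one lower. In the same comparison 5 inflammasome genes were called higher, among them NLRC4 (1.80), a sensor, and PYCARD (1.14), the adaptor ASC. Genes named for a call made only without Y31303, here and in later paragraphs, were picked after their values were seen. With the animal as a block and all 10 animals, 4 anti-inflammatory mediators and 2 inflammasome genes were called higher.

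Interferon-stimulated genes were positive in 23 of 25 members with a median of 0.64, and 2 were called higher, against 0.93% of all genes. They were IRF9, the DNA-binding part of the type I interferon transcription complex (0.65, adjusted p = 0.0475 in limma), and IFI35 (0.94, adjusted p = 0.0495). Without Y31303 the median was 0.56 and 2 members were called higher, against 5.12% of all genes. The score per animal overlapped at 8 h, with -1.001 to -0.11 in vehicle and -0.67 to 0.995 in LR12. It was also widely spread at 0 h, with -0.65 to 0.48 in vehicle and -0.62 to 1.08 in LR12.

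Energy and redox genes split by gene rather than moving together. Of 29 glycolysis and hypoxia genes, 3 were called higher and 3 lower, against 0.93% and 1.79% of all genes. The list median was 0.12. PGAM1, a glycolytic mutase, read 8.72, 8.97, 9.69 and 8.55 in vehicle and 9.85 to 10.40 in LR12 (median 10.09), a rise of 1.13 ± 0.18 (adjusted p = 0.00033, limma) without overlap. LDHA, which turns pyruvate to lactate, rose by 1.63 and the stress gene NDRG1 by 0.89. SLC2A1 (GLUT1), the glucose transporter carried at high density by primate red cells, read 6.86, 6.69, 7.59 and 6.59 in vehicle and 4.91 to 6.10 in LR12 (median 5.71), a fall of 1.29 ± 0.30 (adjusted p = 0.0128, limma). The oxygen-sensing hydroxylase EGLN3 (-1.39) and the platelet-type phosphofructokinase PFKP (-1.08) were also lower. NDRG1 and PFKP were named after their values were seen. Without Y31303, 9 of the 29 were called higher, against 5.12% of all genes, and the median was 0.25. The 3 called lower in that fit were below the 11.5% of all genes. Among the 9 were ADM, which encodes adrenomedullin (3.21), the myeloid hexokinase HK3 (1.57) and the oxygen-regulated transcription factor HIF1A (0.68).

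GPX4, the peroxidase that clears lipid peroxides, read 11.46, 11.47, 11.39 and 11.77 in vehicle and 9.18 to 10.10 in LR12 (median 9.95). It fell by 1.68 ± 0.26 (adjusted p = 0.000212, limma), after differences of -0.43 at 0 h and of -1.31 and -1.74 at 2 and 4 h. The 4 vehicle values lay close together and clear of LR12. In the same list of 18 oxidase and antioxidant genes, the mitochondrial superoxide dismutase SOD2 (0.56) and the NADPH oxidase subunit RAC2 (0.47) rose. Without Y31303, 5 genes of that list were called higher and 2 lower, and with the animal as a block 4 higher and 1 lower. HBZ, SLC25A39, CA1, GPX4, GMDS (-2.13), which makes GDP-fucose, and the transmembrane prolyl hydroxylase P4HTM (-2.14) were the 6 genes called under all 22 alternative settings. GMDS and P4HTM were named for that reason after their values were seen.

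Ribosomal protein genes had slightly negative medians. Of 33 cytosolic ribosomal proteins 29 were negative, with a median of -0.21 and 1 called, RPL3 (-1.37). Of 37 mitochondrial ribosomal proteins 34 were negative, with a median of -0.30 and 1 called, MRPL1 (-1.34). Without Y31303, 8 were called lower in each of these lists, of 33 and of 37, against 11.5% of all genes, with medians of -0.20 and -0.47. In each, 2 were called lower with the animal as a block. In the RNA processing list 1 of 27 was called, HNRNPM (-0.49), for which 3 of 6 other probe sets gave the opposite sign, and 5 were called lower without Y31303. Among 14 genes of eosinophils, basophils and mast cells 1 was called, the mast cell protease CMA1 (-2.37), and 3 without Y31303. Platelet genes had a median of -0.58 at 8 h and 0.38 at 0 h, and the only member of 17 called was THBS1, which was higher.

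In 7 further lists 0 members were called by limma with all 10 animals, while without Y31303 members were called in each. Of 18 genes of prostaglandin and leukotriene synthesis, 5 were higher and 1 lower without it. The inducible cyclooxygenase PTGS2 (1.97), the 5-lipoxygenase ALOX5 (1.77) and its activating protein ALOX5AP (0.83) were among the 5. ALOX5 and ALOX5AP were also called with the animal as a block and all 10 animals (1.26 and 0.56). Of 24 heat shock and unfolded protein genes 4 were higher and 5 lower without Y31303, and of 19 glucocorticoid-induced genes 4 and 2. Of 11 patrolling monocyte genes 2 were higher and 3 lower, and of 28 oxidative phosphorylation genes 3 and 2. Of 29 proteasome genes 2 were higher, and so were 2 of 10 plasma cell genes, XBP1 (0.90), a transcription factor of secretory cells, and JCHAIN (2.74), the joining chain of IgA and IgM. With the block and all 10 animals, 0 proteasome and 0 plasma cell genes were called. The block called 2 glucocorticoid-induced genes higher and 1 lower. It called 1 gene higher in each of the heat shock, patrolling monocyte and oxidative phosphorylation lists. The shares without Y31303 stand against 5.12% of all genes called higher and 11.5% called lower, and those with the block against 4.64% called in either direction.

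Genes of the targeted pathway were not called at 8 h with all 10 animals. Of 18 tested genes for TREM-1, its relatives, adaptors and ligands, 0 passed in either direction and the median was 0.16. TREM1 itself read 11.86, 10.94, 8.03 and 10.35 in vehicle and 11.27 to 12.71 in LR12 (median 12.06). The difference of 1.76 ± 0.94 did not pass (adjusted p = 0.28, limma), and it was as large at 0 h (1.84). Vehicle animal Y31301 lay in the LR12 range, and Y31303 was the lowest. TREML1, the parent of the peptide, gave -0.65 ± 0.50 (adjusted p = 0.489) and the adaptor TYROBP 0.10 ± 0.14 (adjusted p = 0.758). Without Y31303, 3 of the 18 were called higher, TREML2 (1.32), TREM2 (1.87) and the adaptor LAT2 (0.63), a signalling scaffold of myeloid cells. TREML2, a relative of TREM-1, was also called with the animal as a block (1.004, adjusted p = 0.0327, limma). The other probe set of LAT2 gave -0.15 with all 10 animals.

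With all 10 animals the endotoxin receptor genes and early cytokines did not pass at 8 h either. TLR4 read 11.08, 11.37, 10.46 and 10.21 in vehicle and 11.32 to 12.31 in LR12 (median 11.94), a difference of 1.12 ± 0.33 that missed the threshold (adjusted p = 0.0544, limma) and passed it with the animal as a block (adjusted p = 0.0214, limma). CD14 gave 0.55 (adjusted p = 0.231). IL1B gave 0.78 ± 0.53 (adjusted p = 0.426), TNF 0.74 (adjusted p = 0.4), CXCL8 0.63 (adjusted p = 0.4) and IL6 -0.13 (adjusted p = 0.951), with overlapping groups in each. IL6 was low, at 1.25 to 4.28 over the 10 animals, where the mean array median was 3.95. CCL2, a chemokine for monocytes, gave 1.57 ± 0.74 (adjusted p = 0.216), and 2.11 without Y31303 (adjusted p = 0.0255, limma). At 2 h IL1B had differed by 2.74 and CCL2 by 3.28, both called at that hour. The lists of inflammatory cytokines (16 genes), chemokines (18), NF-kB feedback (20), endotoxin recognition (18) had 0 members called by limma at 8 h, with medians of 0.00, 0.28, 0.15 and 0.06. Without Y31303 the medians were 0.24, 0.70, 0.23 and 0.20.

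Leaving out Y31303 brought calls in each of these lists, against 5.12% of all genes called higher and 11.5% lower. The cytokines, with 1 higher and 1 lower of 16, and the 2 lower of 18 chemokines were near or below those shares. Of the chemokines 4 were higher, CCL2, CCL4 (1.82), CCL8 (2.91) and CXCL2 (2.07), and 2 lower, CCL5 (-1.82) and CXCL16 (-0.96). The other probe set of CXCL2 gave -1.53 with all 10 animals. Among the cytokines, OSM (oncostatin M) was higher (1.63) and LTA (lymphotoxin alpha) lower (-1.34). The TLR4 partner LY96 (2.50) and TLR1 (0.80) were the 2 endotoxin recognition genes called higher. The mRNA-decay factor ZFP36 (0.68) and the transcription factor JUN (1.11) were the 2 of the NF-kB feedback list. With the animal as a block and all 10 animals, OSM (1.21), ZFP36 (0.62), JUN (0.99) and CCL5 (-1.18) were also called.

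**Figure D5:**
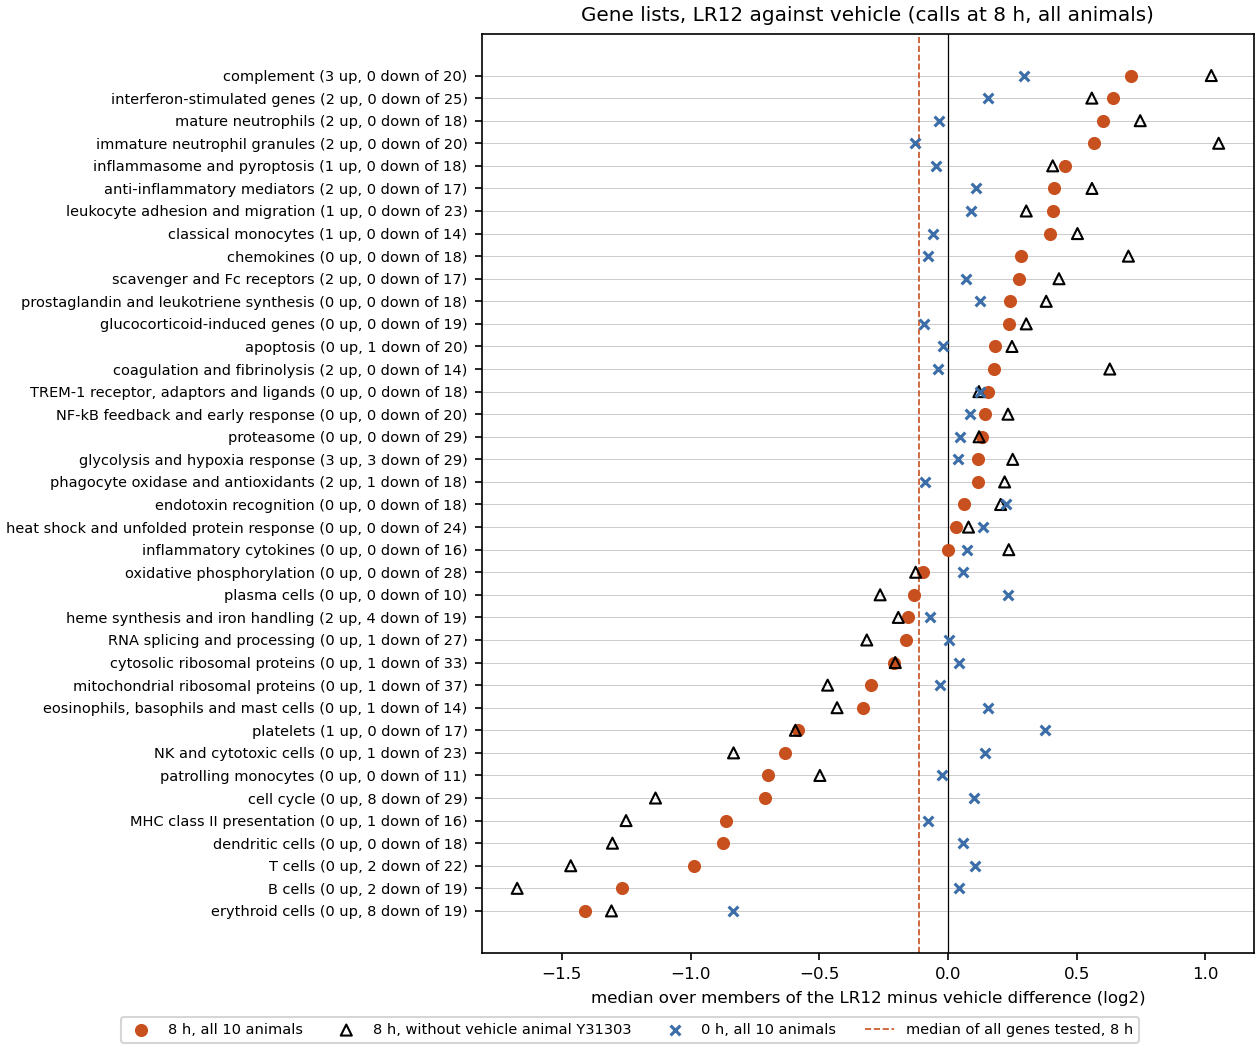
Median over the members of each of 38 gene lists of the LR12 minus vehicle difference (log2), at 8 h with all animals (filled circles), at 8 h without Y31303 (triangles) and at 0 h (crosses), with the median of all genes at 8 h, -0.11, as a dashed line. Erythroid genes are lowest at 8 h (-1.41) and the list furthest below 0 at 0 h (-0.84), while leaving out Y31303 moves B cells from -1.27 to -1.67.

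Whether the arms also differed in their change from each animal's own hour 0 depended on how an animal's arrays were treated. In the fit without animals, 0 of 16020 genes were called by limma for the difference in change from 0 h to 8 h, while 2176 had an unadjusted p below 0.05 (13.6%). With the animal as a block, which uses the pairing of an animal's own arrays, 279 genes were called (1.74%), 106 higher and 173 lower. Without Y31303 and without the block, 303 were called (1.89%). HBZ changed by -3.94 ± 0.72 more in LR12 than in vehicle with the block (adjusted p = 0.00634, limma), against an adjusted p of 0.086 without it. For UROS the difference in change was -1.81, with adjusted p of 0.0133 with the block and 0.0994 without (limma). PGAM1 (1.27), GPX4 (-1.25), MARCO (7.38), HP (3.26) and E2F1 (-1.16) were also called on this measure with the block. CA1 (-0.73, adjusted p = 0.32) and PTGR1 (-0.58, adjusted p = 0.656) were not. Of the 29 cell cycle genes 4 were called lower with the block and of the 19 erythroid genes 0.

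The hours and arms beside this comparison share arrays or animals with it, and their counts are given as context. Between LR12 and vehicle, 3 genes were called at 0 h (0.0187%). The count was 2544 at 2 h (15.9%) and 1910 at 4 h (11.9%). Within the LR12 arm, 4658 genes were called between 8 h and 0 h (29.1%), and within the vehicle arm 6 (0.0375%). The peptide control did not differ from vehicle at 8 h in any called gene (0 called by limma, 1153 with an unadjusted p below 0.05, 7.2%). Between LR12 and the peptide control 3 genes were called at 8 h (0.0187%). The peptide control differed from vehicle by -3.33 for HBZ, -1.71 for SLC25A39, -1.06 for GPX4, 2.59 for HP and 4.81 for MARCO, none of them called. These means cover unlike animals. Peptide control animal Y31305 read 2.26 for MARCO and 4.81 for OLFM4 at 8 h. The other peptide control animals read 9.88 to 10.71 and 11.12 to 12.66, against 9.68 to 11.67 and 11.50 to 12.25 in LR12. For HBZ Y31305 read 3.09, within the 0.44 to 4.46 of that arm.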

How the data were processed

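Per the labels, total RNA from PAXgene blood tubes was amplified and labelled with a NuGEN kit for whole blood. The deposited values are linear array intensities made by the authors with MAS5, per the submitters' processing notes, with no version or settings given. Probe names are those of a human array, so macaque RNA was read with human probes and levels were compared only within a gene. The mean after trimming 2% of values lay between 150.026 and 150.037 on each of the 56 arrays.

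Log2 intensity was taken from the deposited values with no further normalization. Of 54675 probe sets, 38826 lay above the array median on at least 4 arrays and were kept. Each gene was read by its kept single-symbol probe set with the highest mean (41097 probe sets had 1 symbol, 1801 several, 11777 none). Of 16020 genes, 13561 had a symbol that the macaque table also lists.

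limma 3.58.1 in R 4.3.3 fitted 12 groups over 56 arrays with trended, robust moderation (44 residual degrees of freedom), two-sided, with Benjamini-Hochberg adjustment. The script was tested on simulated data. An animal's arrays share its label. Their residuals correlated at a mean of 0.18 (-0.00867 to 0.513), against -0.0294 between animals, and 45 of 56 arrays matched best with an array of the same animal. The block is therefore given beside results where it changes a call, though not beside every one. Labels name separate animals as replicates.

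Members, gene lists and the rule for named genes were chosen with earlier results of these data known. That rule took, in each direction, the 12 called genes of largest difference without overlap whose higher group exceeded the mean array median, the 4 members of smallest p in each of 38 lists, and 10 genes of the pathway. Exceptions are marked. Alternatives covered the arrays in the fit, block, scaling, offset, filter, probe set rule, moderation, array set and each animal. Omission of Y31303 together with the array set was chosen after seeing the data. The array set is the level of 24 spike-in control probe sets, split at its widest gap.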

Additional observations from a re-analysis of the deposited data

Results flagged for a closer look

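In 264 groups of 4 or 6 animals at 8 h (the genes named and the list scores), 1 animal lay apart from the rest of its group by Dixon's test in 20 (7.58%). Chance gives about 1 in 20 for independent groups. These groups share animals, and many genes were named for their values at 8 h, so that share is no reference here. Of the 20 cases found, 8 were vehicle animal Y31303. It was high for MARCO (10.21, other vehicle animals 0.91 to 1.51), OLFM4 (12.65, others 3.63 to 4.47), MS4A6A (12.73), IRAK3 (11.06) and CCL24 (3.53). It was low for FCER2 (4.54), SH3GLB2 (5.41) and the MHC class II score (-0.94, others 0.13 to 0.35). Vehicle animal Y31301 was high for CD14 (11.99) and E2F1 (7.97).

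In the LR12 arm, Y31310 was low for TINF2 (8.39), CCL2 (3.13), KLF1 (1.22) and the chemokine score (-0.54). Y31311 was low for GPX4 (9.18) and CMA1 (1.23), and high for the score of neutrophil granules (1.46, others 0.81 to 1.02). Y31309 was low for CD14 (11.38) and high for CD79A (9.94). Y31312 was low for E2F1 (5.83).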

How the results depend on the processing

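The counts moved with the animals and with what set the spread. Against 435 called genes (149 higher, 286 lower), 15 (1 and 14) were called in the fit of the 10 arrays alone, 744 (248 and 496) with the animal as a replicate block, 204 (90 and 114) with arrays centred on their median, 1151 (347 and 804) with the array set as a covariate, 37 (3 and 34) on high-control arrays and 1848 (568 and 1280) on low-control arrays. Leaving out 1 animal gave 53 to 2668 called genes, 12 to 820 higher and 39 to 1848 lower; the lowest counts came without vehicle animals Y31301, Y31302 (63) and Y31304 (107), the highest without Y31303 and LR12 animal Y31309 (1080). Without LR12 animals Y31310, Y31311, Y31312 and Y31313 the counts were 208, 213, 143 and 224. With the array set as a covariate and Y31303 left out, 2951 were called (926 and 2025). Quantile normalization (346), an offset of 16 (444), no filter (361), a filter of 28 arrays (568), probe set means (319) and plain moderation (331) stayed within 1.5 times. The cause of these shifts was not tested.

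The difference in change from 0 h was called for 0 genes, for 279 with the block, 5 on high-control and 34 on low-control arrays, 0 to 303 without 1 animal, and 376 with the covariate and without Y31303. Directions turned for AFAP1L1 (-0.0026) and HNRNPM (0.064) with probe set means, for TYROBP (-0.091), IL6 (0.64) and CA2 (-0.46) on high-control arrays, for IL6 without Y31302 (0.38), Y31304 (0.06) or Y31313 (0.13), and for CA2 without Y31302 (-0.18). Without 1 animal IL6 ranged from -0.63 to 0.38 and CA2 from -0.18 to 1.16. Signal near background limits HBZ, PADI3, SOX6, RPGRIP1, IL6 and MARCO.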
